A study of Mus musculus with 46 samples.

Results

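Chemokines and their receptors were followed through T-cell development in wild-type mice and in mice carrying an LMO2 transgene. The family was taken as every gene of the deposited table whose symbol is a numbered Ccr, Cxcr, Ackr, Ccl or Cxcl name, together with Xcr1, Cx3cr1, Xcl1 and Cx3cl1. This gave 58 of 19521 genes, of which 22 are receptors, including 4 scavenging receptors of the Ackr type, and 36 are ligands. The mice were of the C57BL/6 strain. The transgenic animals (TG) express LMO2, a bridging protein of transcription factor complexes and an oncogene of T-cell leukaemia, from control elements of human CD2, which are active in T cells. The wild-type animals (WT) carry no transgene, and no source used here gives ages, sexes or the number of animals behind a library.

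RNA was sequenced from 40 libraries of sorted cells in 14 groups. From the thymus of both genotypes came cells with neither CD4 nor CD8 (double negative, DN), sorted in total and as the early DN1 and later DN3 stages. Thymocytes with both molecules (double positive, DP) and with only 1 of them (CD4SP or CD8SP, single positive) were sorted as well. Splenic CD4+ and CD8+ T cells were represented by transgenic libraries alone. Each group had 3 libraries except wild-type DN1, which had 1. The p-values measure the spread between these libraries, which may be technical.

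Chemokines are small secreted proteins that attract cells along gradients, and their receptors are membrane proteins that signal through G proteins of the inhibitory class. The 4 scavenging receptors bind chemokines and remove them without that signal. In the thymus, CXCR4 and CCR9 bind CXCL12 and CCL25 made by stromal cells and help place immature thymocytes, CCR4 and CCR7 guide selected cells towards the medulla, and CCR7 with CXCR5, CXCR3 and CCR4 directs mature T cells within lymphoid organs and tissues.

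The promoters of Ccr9 and Cxcr4 are shown because these receptors had the highest transcript levels per gene length in DP cells and differed in how they stood between the genotypes in DN3 cells. Both sequences are RefSeq's, build GRCm38.p6, and cover the 250 bases before the annotated start, read 5′ to 3′ on the gene's strand. The Ccr9 window is chr9:123766961-123767210 on the plus strand and the Cxcr4 window is chr1:128592300-128592549 on the minus strand. Capitals mark CANNTG, the E-box core bound by TAL1 and other basic helix-loop-helix proteins, and GATA or its reverse complement TATC, since LMO2 is known to bridge proteins of these classes.
Ccr9: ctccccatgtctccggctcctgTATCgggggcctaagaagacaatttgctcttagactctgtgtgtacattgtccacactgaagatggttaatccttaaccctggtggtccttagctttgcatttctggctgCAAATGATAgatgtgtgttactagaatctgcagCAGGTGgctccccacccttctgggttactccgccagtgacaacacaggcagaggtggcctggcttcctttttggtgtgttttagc
Cxcr4: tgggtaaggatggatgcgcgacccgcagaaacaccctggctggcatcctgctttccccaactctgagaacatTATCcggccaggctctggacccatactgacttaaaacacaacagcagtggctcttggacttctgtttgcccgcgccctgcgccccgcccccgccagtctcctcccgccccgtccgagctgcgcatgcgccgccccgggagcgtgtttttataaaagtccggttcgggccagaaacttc
The Ccr9 window held 2 CANNTG and 2 GATA matches, with 1 overlapping pair, and the Cxcr4 window held 0 CANNTG and 1 GATA match. Of the 58 members, 45 had an entry in the promoter table, with 52 windows in all. CANNTG was present in 34 of them (65.4%), beside 66.2% of all 32851 windows of that length, and GATA on either strand in 33 (63.5%), beside 53.6%. These matches describe the letters of the windows and are not binding sites.

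Read counts summed to between 17211426 and 28842773 per library. Levels are given as CPM, counts scaled to each library's effective size. Lmo2 lay between 0.119 and 2.30 CPM in wild-type DN3, DP and single-positive libraries, was 31.7 CPM in wild-type DN1, and lay between 16.7 and 91.2 CPM in all transgenic libraries except the one labelled TG DP replicate 3, where it was 0.395 CPM. Other libraries also stood apart from their labels. TG CD4SP replicate 1 had 190.1 CPM of Cd4, beside 1379 to 1897 CPM in wild-type CD4SP, and TG CD4SP replicate 2 had 3093 CPM of Cd8a and 6487 CPM of Rag1, a recombinase gene of immature cells. CD8SP replicate 3 carried 855 CPM of Cd4 in the wild type and 1408 CPM in the transgenic. TG spleen CD8 replicate 1 had 121 CPM of the T-cell gene Cd3e, beside 713 and 721 CPM in the other two, and TG spleen CD4 replicate 3 had the highest summed level of erythroid markers, 59276 CPM. The main results that rest on the named TG DP, TG CD4SP and splenic libraries are given with and without them. For CD8SP replicate 3 this was done only in part.

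The number of family members at a mean of 1 CPM or more differed between populations. It was 32 in wild-type and 30 in transgenic DN1 cells, 7 and 6 in DN3, 22 and 21 in total DN, 10 and 9 in DP, 19 and 22 in CD4SP, and 19 and 17 in CD8SP. In the spleen it was 34 for CD4 and 28 for CD8 cells. Over all groups 26 members reached a group mean of 10 CPM, 13 lay between 1 and 10 CPM, and 19 stayed under 1 CPM. The low members are mostly ligands, among them Ccl2, Ccl20, Cxcl1 and Cxcl2, and Ccl21c had no count in any library. The heatmap of group means shows Ccr9 and Cxcr4 in every thymic group, and more members in DN1 and spleen than in DN3 and DP.

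**Figure D1:**
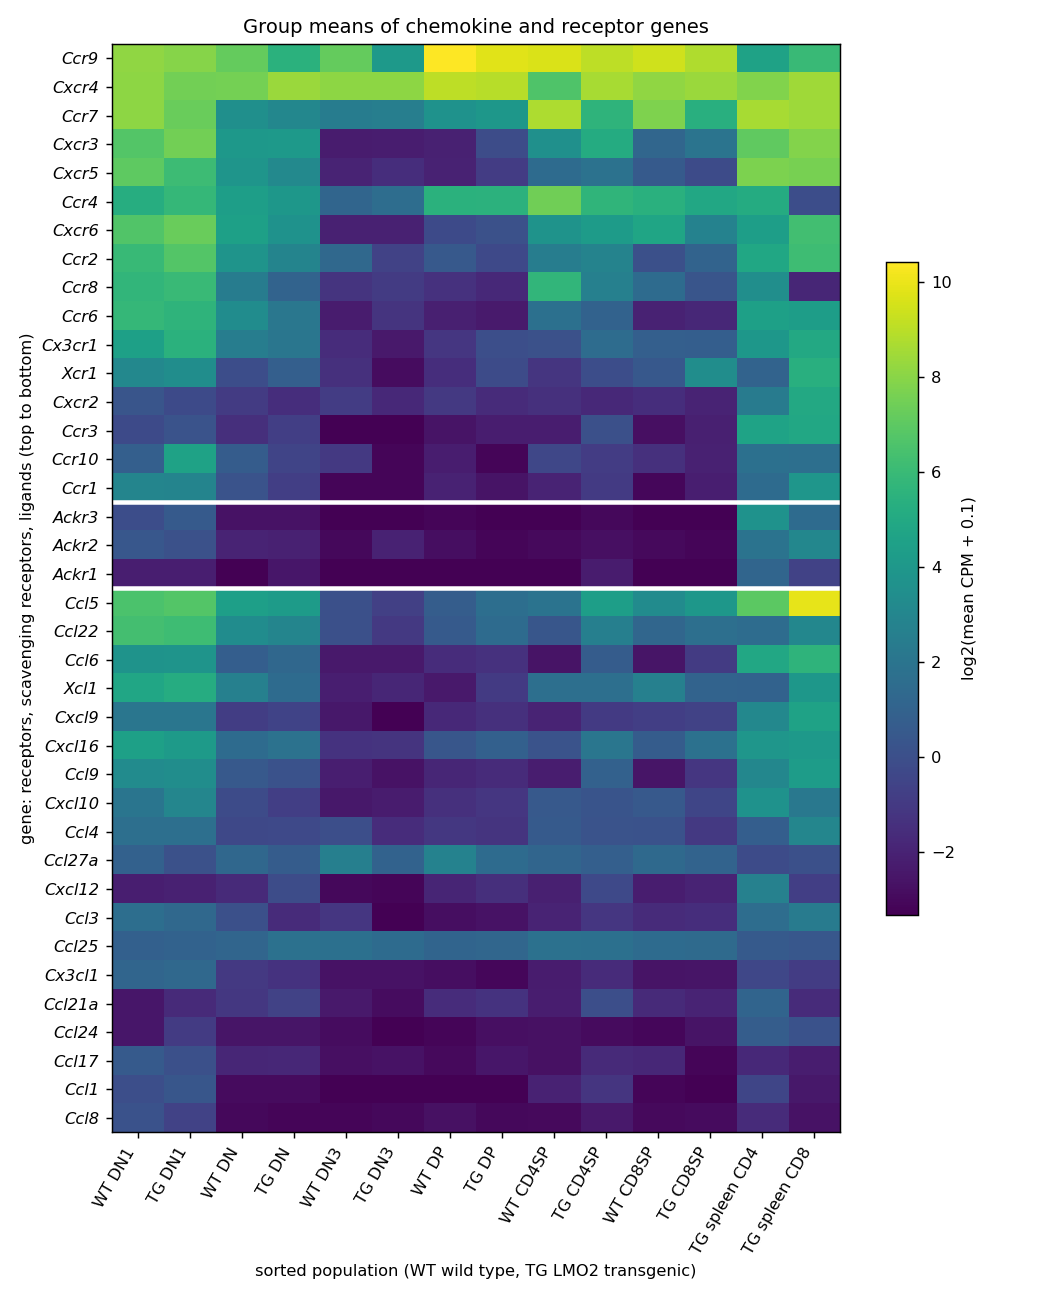
Heatmap of reported members with a group mean of at least 1 CPM (rows, ordered by role and highest mean) in the 14 groups (columns), coloured by log2 of the mean CPM plus 0.1. DN3 and DP cells show fewer members above 1 CPM than DN1 and splenic cells.

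Levels of different genes were compared by the deposited FPKM values, which account for gene length. Cxcr4, the receptor of CXCL12, led in wild-type DN3 cells at 181 ± 3.17 FPKM, followed by Ccr9 at 39.3 ± 8.11 FPKM. In transgenic DN3 cells Cxcr4 stood at 169 ± 11.7 FPKM and Ccr9 at 4.30 ± 1.13 FPKM. In wild-type DP cells Ccr9 and Cxcr4 were at 323 ± 3.14 and 316 ± 20.4 FPKM, which lie within the spread of the libraries, and the next receptor, Ccr4, at 16.5 ± 1.14 FPKM. Ccr7 led in wild-type CD4SP cells at 241 ± 8.96 FPKM, and Cxcr4 in wild-type CD8SP cells at 163 ± 33.5 FPKM, closely followed by Ccr9 at 159 ± 43.6 FPKM. The ligand Ccl5 led in both splenic populations, with 296 ± 115 FPKM in CD4 and 2147 ± 1841 FPKM in CD8 cells, the latter with a spread nearly as wide as the mean.

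From DN3 to DP in wild-type thymocytes, Ccr9, Ccr4, Cxcr4 and Ccr7 rose. Ccr9, the receptor of CCL25, was at 119, 179 and 143 CPM in the 3 DN3 libraries and at 1487, 1331 and 1326 CPM in DP. Ccr4, the receptor of CCL17 and CCL22, went from 1.68, 2.87 and 1.83 CPM to 50.7, 42.4 and 39.6 CPM. All DP libraries were above all DN3 libraries for both receptors, by a log2 fold change of 3.21 ± 0.20 for Ccr9 (edgeR quasi-likelihood test, Benjamini-Hochberg adjusted p = 2.67e-06) and 4.36 ± 0.24 for Ccr4 (edgeR adjusted p = 1.47e-06). Cxcr4 was at 269, 276 and 266 CPM in DN3 and 615, 494 and 508 CPM in DP, a smaller rise of 0.98 ± 0.16 (edgeR adjusted p = 0.000687). Ccr7, the receptor of CCL19 and CCL21, was still low in DP at 15.2, 13.98 and 9.51 CPM, after 3.15, 6.58 and 6.19 CPM in DN3, a rise of 1.27 ± 0.30 (edgeR adjusted p = 0.00548). In these bulk samples, fewer cells of a type and less RNA per cell cannot be told apart.

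Of 14 members tested between DN3 and DP, 6 were higher and 4 lower in DP cells, where 60% of all genes tested were called (28.6% higher and 31.4% lower). Cxcl16, the transmembrane ligand of CXCR6, also rose, by 1.96 ± 0.55 (not called without WT DN3 replicate 1 or 2). Ccr2, a receptor best known from monocytes, fell from 2.37, 2.29 and 2.53 CPM to 1.28, 1.03 and 1.74 CPM, a change of -0.84 ± 0.28 (edgeR adjusted p = 0.0289), and the call was lost without WT DN3 replicate 1 or 3 or WT DP replicate 2 (edgeR adjusted p between 0.0705 and 0.119). Ccl25, the ligand of CCR9, had a mean of 3.24 ± 0.438 CPM in DN3 and 2.06 ± 0.372 CPM in DP, a change of -0.67 ± 0.26 (edgeR adjusted p = 0.0474). It was not called with DESeq2, with RLE size factors, with a replicate term or without the filter on low counts. Only 2 of 6 fits that left out 1 library called it. Ccl28 and Ccl4, both at means under 1 CPM, were also lower, called in 3 of 6 and 4 of 6 such fits. Neither DESeq2 nor the fit with a replicate term called Ccl4. Among markers of other cells, the 12 macrophage and granulocyte markers summed to 9.17 to 12.3 CPM in DN3 and 22.7 to 46.1 CPM in DP, and the 5 gamma-delta and NKT markers to 108 to 124 and 2.34 to 4.82 CPM, and their part in these differences was not tested. Leaving out 1 library at a time kept Ccr9, Ccr4, Cxcr4 and Ccr7 called in 6 of 6 fits.

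**Figure D2:**
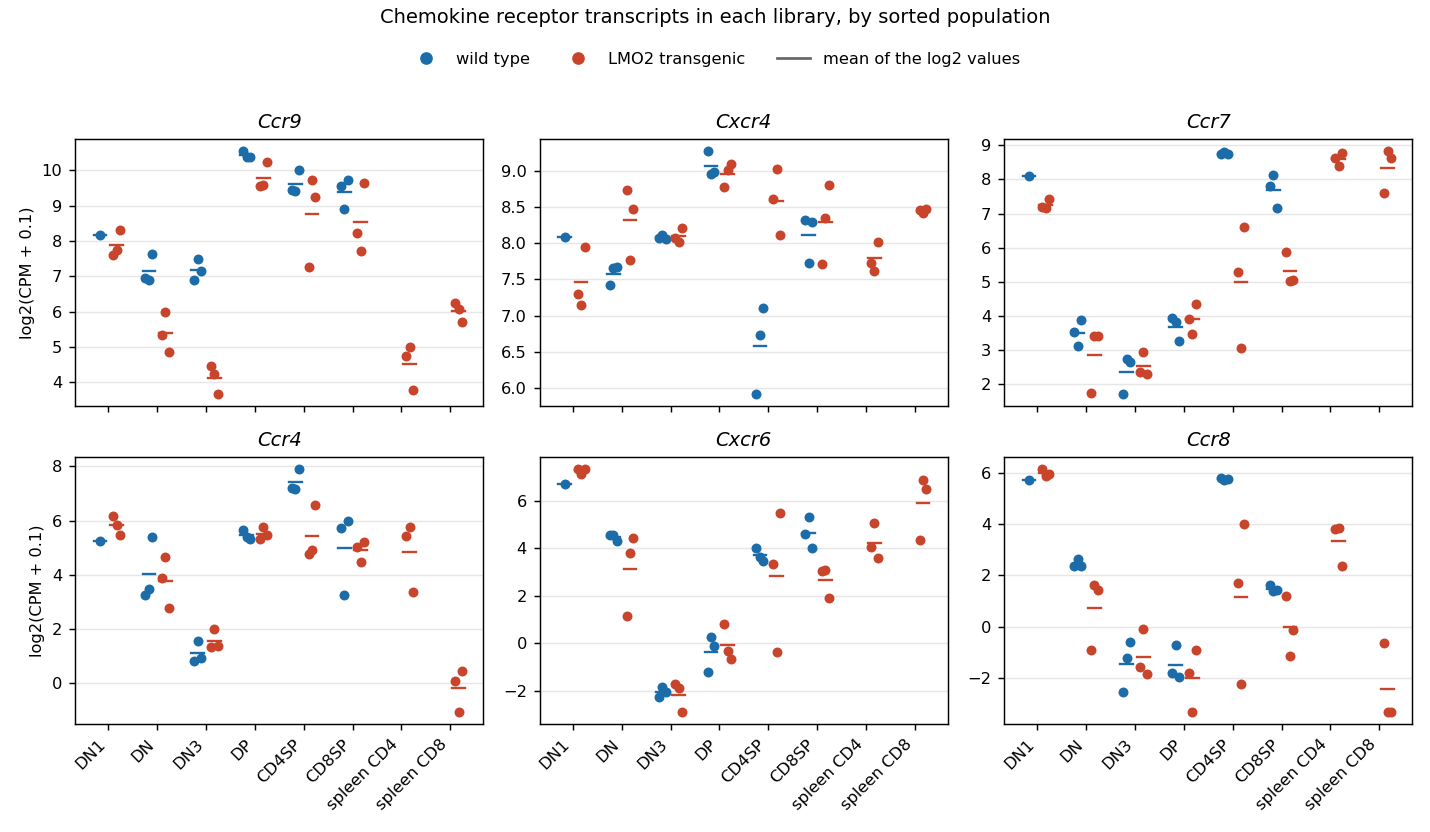
Transcript level of 6 receptors in every library, as log2(CPM + 0.1), by sorted population; points are libraries, coloured by genotype, and bars are means of the log2 values. Ccr9 in DN3 and Ccr7 in CD4SP and CD8SP show transgenic libraries apart from wild-type ones, and Cxcr4 in CD4SP shows the opposite order.

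At the step from DP to CD4SP in wild-type cells, Ccr7 and a set of receptors of mature T cells rose while Cxcr4 and Ccr9 fell. Ccr7 reached 429, 443 and 427 CPM, with libraries that hardly differed from each other, a rise of 5.09 ± 0.22 over DP (edgeR adjusted p = 1.2e-05). Ccr8, the receptor of CCL1, showed the largest rise of the family in this comparison, from 0.189, 0.516 and 0.158 CPM to 55.8, 52.5 and 53.4 CPM, which is 7.52 ± 0.31 (edgeR adjusted p = 1.12e-05). Ccr4 went further up to 149, 144 and 239 CPM, a rise of 2.02 ± 0.24 (edgeR adjusted p = 0.000516). Cxcr4 dropped to 60.3, 107 and 137 CPM, a change of -2.40 ± 0.30 (edgeR adjusted p = 0.000749), and all 3 libraries lay under every DP library. Ccr9 was at 703, 682 and 1025 CPM, a change of -0.77 ± 0.19 (edgeR adjusted p = 0.0156), a call lost without CD4SP replicate 1 (adjusted p = 0.0697) or replicate 2 (adjusted p = 0.0731).

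Of 21 members tested from DP to CD4SP, 13 rose and 3 fell, where 43.9% of all genes were called (23.4% higher and 20.5% lower). Among inflammatory receptors, Cxcr3 went from a mean of 0.140 ± 0.0994 CPM to 11.98 ± 1.55 CPM, Cxcr6 from 0.757 ± 0.395 to 13.2 ± 2.63 CPM and Ccr2 from 1.35 ± 0.358 to 5.63 ± 1.62 CPM. Ccr6, the receptor of CCL20, and Cxcr5, the receptor that takes cells into B-cell follicles, rose to 3.29 ± 1.40 and 2.69 ± 0.448 CPM from under 1 CPM. Ccr10 and Cx3cr1 rose but stayed at means under 1 CPM. Fits that left out 1 library called Ccr10 in 6 of 6 cases and Cx3cr1 in only 2 of 6. Of the ligands, Xcl1 rose to 3.13 ± 1.13 CPM, Ccl4 to 1.38 ± 0.499 CPM and Cxcl10 to 1.33 ± 0.181 CPM, and Ccl27a fell from 6.85 ± 1.23 to 2.14 ± 0.174 CPM. Markers of other cells moved with these genes, since the summed level of 7 markers of NK and innate lymphoid cells was 15.7 to 23.3 CPM in CD4SP and 0.395 to 0.662 CPM in DP, and that of 4 regulatory T-cell markers was 195 to 302 CPM and 91.4 to 152 CPM. None of the 7 NK markers was at 0 in either group, and the part of such cells in these rises was not tested.

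Ccr8, Ccr6, Cxcr3, Ccr2 and Ccr7 were lower and Cxcr4 was higher in wild-type CD8SP than in CD4SP cells. Ccr8 was at 2.96, 2.49 and 2.59 CPM in CD8SP, all far under the CD4SP libraries, a difference of -4.34 ± 0.14 (edgeR adjusted p = 2.54e-06). Ccr6, Cxcr3 and Ccr2 were lower too, with log2 differences of -4.47 ± 0.61, -2.47 ± 0.49 and -2.58 ± 0.31. Ccr7 was at 225, 277 and 143 CPM in CD8SP, a difference of -1.02 ± 0.22 (edgeR adjusted p = 0.00724), without overlap. Cxcr4 was the reverse, at 319, 212 and 312 CPM in CD8SP and higher by 1.46 ± 0.30 (edgeR adjusted p = 0.00542).

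In all, 8 of 22 members tested between the 2 single-positive populations were called, 2 higher and 6 lower in CD8SP, where 44.7% of all genes were called (24.1% higher and 20.6% lower). Marker lists differed between these groups too, with 7 NK and innate lymphoid markers at 3.56 to 10.2 CPM in CD8SP and 15.7 to 23.3 CPM in CD4SP, 5 gamma-delta and NKT markers at 4.30 to 5.76 and 19.95 to 28.97 CPM, and 3 of 4 regulatory T-cell markers called lower in CD8SP. Their part in the lower receptor levels was not tested. Cxcr6, higher in CD8SP at 24.1, 40.01 and 16.01 CPM beside 16.1, 12.4 and 11.1 CPM, had overlapping libraries and was called only in the fits that left out CD4SP replicate 1 or CD8SP replicate 3 (edgeR adjusted p between 0.0635 and 0.106 in the others). Ccr4, lower in CD8SP at 53.4, 9.51 and 63.6 CPM, was called only in those without CD8SP replicate 2 or 3 (edgeR adjusted p between 0.0535 and 0.0932 in the others), and replicate 2 was far under the other two. Against DP cells, 11 of 19 members tested were called in CD8SP, 8 higher and 3 lower, where 37.7% of all genes were called (20.8% higher and 16.9% lower). Ccr7 rose by 4.01 ± 0.30 and Cxcr6 by 5.05 ± 0.48, while Ccr9 fell to 749.8, 482 and 844 CPM, a change of -1.05 ± 0.23 (edgeR adjusted p = 0.011). These stage comparisons share the wild-type DP and CD4SP libraries.

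The LMO2 transgene went with a lower Ccr9 level in DN3 cells, a stage at which the T-cell receptor beta gene is rearranged. Ccr9 was at 119, 179 and 143 CPM in wild-type and 21.7, 18.6 and 12.5 CPM in transgenic DN3 libraries. Every transgenic library lay under every wild-type library, and the log2 fold change was -3.06 ± 0.23 (edgeR adjusted p = 4.56e-05), called in 6 of 6 fits that left out 1 library. Cxcr4 in the same cells was at 269, 276 and 266 CPM in wild-type and 269, 260.02 and 295 CPM in transgenic libraries. The Cxcr4 ranges overlapped and the estimate was 0.02 ± 0.10 (edgeR adjusted p = 0.862). Ccr7 and Ccr4, at a few CPM in either genotype, were not called, at 0.13 ± 0.31 and 0.46 ± 0.32.

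Of 11 members tested in DN3 cells, 5 were called between the genotypes. Counted either way this share, 45.5%, was near that of all genes, 45.7%. By direction, 5 were lower and 0 higher in the transgenic, where 22.2% of all genes were lower and 23.4% higher. Ccl27a, a skin-type ligand of CCR10, was at 6.56, 5.49 and 5.95 CPM in wild-type and 2.74, 1.52 and 1.44 CPM in transgenic libraries, a change of -1.66 ± 0.29 (edgeR adjusted p = 0.00209). Its annotated span overlaps that of Il11ra1 in the RefSeq table. Where exons overlap, which was not checked, reads of the 2 genes could not be told apart without known strandedness. Ccr2 was at 2.37, 2.29 and 2.53 CPM and 0.925, 0.379 and 0.359 CPM, a change of -2.10 ± 0.40 (edgeR adjusted p = 0.00315), not called in 1 fit of all libraries (adjusted p = 0.0948). Ccl4 and Ccl22, both under 1 CPM in the transgenic libraries, were lower, at -1.90 ± 0.46 and -1.25 ± 0.38. The Ccl4 call was lost without WT DN3 replicate 3 (edgeR adjusted p = 0.059), and the Ccl22 call without TG DN3 replicate 1 or 2 or WT DN3 replicate 2 or 3 (edgeR adjusted p between 0.0568 and 0.121). In 1 fit of all libraries neither was called (edgeR adjusted p = 0.069 and 0.213), and DESeq2 did not call Ccl22 (adjusted p = 0.0686).

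Marker lists of other cells differed between the DN3 groups as well. The 12 macrophage and granulocyte markers summed to 9.17 to 12.3 CPM in wild-type and 3.90 to 5.27 CPM in transgenic libraries. S100a8, Elane and Cd14 were at 0 in both, and of the 3 tested 1 was called higher and 1 lower. The 8 dendritic-cell markers summed to 22.5 to 31.1 and 11.6 to 13.8 CPM. The sums were 24.4 to 34.2 and 8.94 to 14.7 CPM for 9 B-cell markers. For 5 gamma-delta and NKT markers they were 108 to 124 and 266 to 599 CPM. The 6 mast-cell and basophil markers summed to 29.1 to 72.5 CPM in wild-type and 506 to 853 CPM in transgenic libraries, nearly all of it Cpa3, while Ms4a2, Mcpt4 and Fcer1a were at 0 in both. The part of these lists in the lower Ccr9, Ccl27a, Ccr2, Ccl4 and Ccl22 levels was not tested.

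In total DN cells Ccr9 was again lower in the transgenic. It was at 124, 119 and 198 CPM in wild-type and 40.2, 63.7 and 29.004 CPM in transgenic libraries, without overlap, a change of -1.77 ± 0.32 (edgeR adjusted p = 0.0178). It was the only 1 of 28 members called there, where 12.4% of all genes were called (7.47% higher and 4.89% lower). The call was lost without TG DN replicate 3 (edgeR adjusted p = 0.0579), WT DN replicate 1 (0.0665), replicate 2 (0.0623) or replicate 3 (0.0505), with log2 fold changes between -1.90 and -1.50. Cxcr4 was at 171, 201 and 203 CPM in wild-type and 425, 217 and 353 CPM in transgenic DN libraries and was not called, at 0.74 ± 0.23 (edgeR adjusted p = 0.0739). Without TG DN replicate 2, whose 217 CPM was the nearest to the wild type, Cxcr4 was called at 0.97 ± 0.15 (edgeR adjusted p = 0.00695). In that fit 24.7% of all genes were called. Without WT DN replicate 3, Cxcr4 was not called, at 0.77 ± 0.28 (edgeR adjusted p = 0.129). The other fits that left out 1 library are not given for Cxcr4. Markers of other cells differed among the DN libraries, with summed B-cell markers of 149 to 312 CPM in wild-type and 29.3 to 235 CPM in transgenic libraries. The 6 mast-cell and basophil markers summed to 13.02 to 28.2 CPM in wild-type and 305 to 1839 CPM in transgenic libraries, without overlap, the latter nearly all Cpa3. The part of either list in the Ccr9 difference was not tested.

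In DP cells 0 of 13 members were called, where 0% of all genes were called. At an unadjusted edgeR p under 0.05 there were 2450 genes, 3 of them members, and DESeq2 called 0 members. Ccr9 was at 1487, 1331 and 1326 CPM in wild-type and 760.5, 769 and 1209 CPM in transgenic DP libraries, with the library labelled TG DP replicate 3 the nearest to the wild type. The estimate was -0.60 ± 0.22 (edgeR adjusted p = 0.215). Without that library, in which Lmo2 was at the wild-type level, it was -0.86 ± 0.16 (edgeR adjusted p = 0.0359), and 7.6% of all genes were called. Cxcr4, at 439.8, 514 and 546 CPM in the transgenic DP libraries, was at -0.11 ± 0.16 and Ccr4 at 0.04 ± 0.17, with overlapping libraries in each case.

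The Ccr9 difference between genotypes was therefore compared between the 2 stages. The transgenic effect in DP minus that in DN3 was 2.48 ± 0.33 on the log2 scale (edgeR adjusted p = 0.00137), so that the DP estimate lay nearer to 0. Ccr9 was the only 1 of 18 members called, where 10.2% of all genes were called (4.88% higher and 5.29% lower). It was called in 12 of 12 fits that left out 1 library, with values from 2.24 to 2.66, the lowest being without the library labelled TG DP replicate 3.

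**Figure D3:**
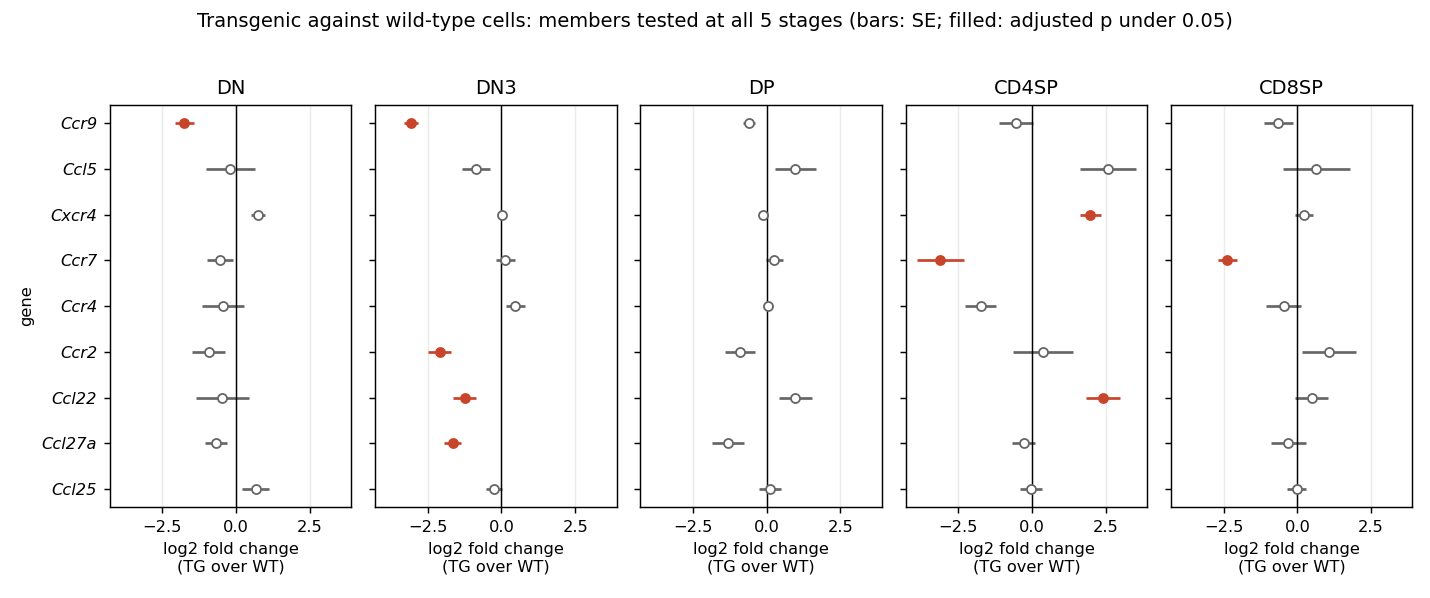
Log2 fold change of transgenic over wild-type cells, with its standard error, for the 9 members that passed the filter on low counts at all 5 stages and reached 1 CPM; filled points have an adjusted p under 0.05 in edgeR. Ccr9 estimates lie left of 0 at each stage and are called in DN and DN3, and Ccr7 is called in CD4SP and CD8SP.

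Among CD4SP libraries the transgenic had lower Ccr7 and higher Cxcr4. Ccr7 was at 429, 443 and 427 CPM in wild-type and 39.3, 8.26 and 97.5 CPM in transgenic libraries, a change of -3.11 ± 0.80 (edgeR adjusted p = 0.0315). Cxcr4 was at 60.3, 107 and 137 CPM and 389, 519.6 and 276 CPM, a change of 1.98 ± 0.36 (edgeR adjusted p = 0.0134). Neither receptor's libraries overlapped between the genotypes. The ligands Ccl22 and Cxcl16 were also higher. Ccl22, which attracts CCR4-bearing cells, was at 5.75, 2.95 and 9.69 CPM after 0.798, 1.13 and 1.62 CPM, by 2.41 ± 0.58 (edgeR adjusted p = 0.0263). Cxcl16 was at 3.38, 3.21 and 5.64 CPM after 0.684, 0.740 and 1.70 CPM, by 2.001 ± 0.55 (edgeR adjusted p = 0.0376). Ccr8 at 3.11, 0.112 and 15.8 CPM and Ccr4 at 27.4, 30.4 and 95.5 CPM lay under every wild-type library but missed the threshold, with edgeR adjusted p = 0.101 and 0.0519. Without TG CD4SP replicate 2, Ccr8 was called lower, at -2.50 ± 0.62 (edgeR adjusted p = 0.0241).

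These 4 calls of 22 members, with 25.9% of all genes called (15% higher and 11% lower), depend on single libraries. Without TG CD4SP replicate 2, the library with high Cd8a and Rag1, 13 of 28 members were called and 34.6% of all genes. The 4 were among the 13, with Ccr7 at -2.64 ± 0.41 (edgeR adjusted p = 0.00713) and Cxcr4 at 1.74 ± 0.36 (edgeR adjusted p = 0.0138). Without TG CD4SP replicate 1, the library with low Cd4, 2 of 23 members were called, Cxcr4 and Ccl22, and 21.6% of all genes, with Ccr7 at -3.003 ± 1.01 (edgeR adjusted p = 0.0854). Without WT CD4SP replicate 1 or 2, 0 members were called, and without WT CD4SP replicate 3 only 1, the estimates for Ccr7 and Cxcr4 lying between -3.15 and -3.12 and between 1.70 and 2.24. Markers of other cells and stages differed between the groups, and not all in 1 direction. The 4 regulatory T-cell markers summed to 195 to 302 CPM in wild-type and 84.2 to 172 CPM in transgenic libraries, without overlap. Of these 4, 1 was called lower. The 6 mast-cell and basophil markers summed to 0.456 to 0.723 CPM in wild-type and 3.21 to 1882 CPM in transgenic libraries, also without overlap. The 12 macrophage and granulocyte markers summed to 32.3 to 49.5 CPM in wild-type and 43.8 to 464 CPM in transgenic CD4SP libraries, the 9 B-cell markers to 3.66 to 6.51 and 23.2 to 70.3 CPM, and Rag1 to 62.6, 48.8 and 297 and 183, 6487 and 2216 CPM. Their part in these differences was not tested.

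Ccr7 was lower in transgenic CD8SP cells too. It was at 225, 277 and 143 CPM in wild-type and 59.04, 32.3 and 33.2 CPM in transgenic libraries, without overlap, a change of -2.37 ± 0.32 (edgeR adjusted p = 0.0163). The call was lost without WT CD8SP replicate 1 (edgeR adjusted p = 0.0876) or replicate 2 (edgeR adjusted p = 0.0898), at -2.36 and -2.13. Cxcr6, the receptor of CXCL16, was at 24.1, 40.01 and 16.01 CPM and 8.10, 8.42 and 3.71 CPM, a change of -1.99 ± 0.42 (edgeR adjusted p = 0.0448), which was called in 1 of 6 fits that left out 1 library. That fit left out WT CD8SP replicate 3, and the estimates of the other fits ran from -2.17 to -1.55 (edgeR adjusted p between 0.0525 and 0.183).

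In CD8SP, 2 of 20 members were called, where 4.45% of all genes were called (2.09% higher and 2.36% lower). Cxcr4 at 209.5, 326 and 446 CPM and Ccr9 at 302, 209 and 803 CPM overlapped the wild type, at 0.23 ± 0.30 and -0.64 ± 0.50. Neither was called with all libraries, but Ccr9 was called in 1 of 6 fits that left out 1 library. CD8SP replicate 3 of either genotype, the library with more Cd4, had the highest Ccr9 of its group. Xcr1, a receptor of cross-presenting dendritic cells, was at 1.14, 30.7 and 0.143 CPM in transgenic CD8SP, and the library at the high end also had 15.7 CPM of the dendritic-cell gene Clec9a, beside 1.002 CPM or less in the other CD8SP libraries. The 5 gamma-delta and NKT markers summed to 4.30 to 5.76 CPM in wild-type and 36.3 to 117 CPM in transgenic CD8SP libraries, without overlap, with 1 of 4 tested called higher, and of the 4 regulatory T-cell markers 1 was called lower. Their part in the Ccr7 and Cxcr6 differences was not tested. The difference between the transgenic effects in CD8SP and CD4SP was called for 0 of 25 members, where 0.032% of all genes were called (0.008% higher and 0.024% lower). At an unadjusted edgeR p under 0.05 there were 2 members, and DESeq2 called 1. For Cxcr4 this difference was -1.74 ± 0.50 (edgeR adjusted p = 0.133).

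DN1 cells, the earliest stage sorted, had the broadest set of members in the thymus. In the single wild-type library Cxcr4, Ccr7 and Ccr9 were at 272, 273 and 287 CPM, and in the transgenic libraries at 157, 142 and 246 CPM, 147, 142 and 172 CPM and 195, 216 and 319 CPM. Cxcr3 was at 106 CPM in wild-type and 192, 178 and 172 CPM in transgenic libraries, Cxcr6 at 105 and 161, 142 and 163 CPM, and Cxcr5 at 129 and 90.01, 51.4 and 65.005 CPM. Of the ligands, Ccl5 was at 92.02 and 100.5, 114 and 104 CPM, Ccl22 at 80.3 and 64.01, 63.6 and 88.9 CPM, and Xcl1 at 27.995 and 37.1, 30.7 and 42.1 CPM. The same libraries held summed B-cell markers of 757 to 1756 CPM, macrophage and granulocyte markers of 1121 to 1623 CPM, and NK and innate lymphoid markers of 291 to 466 CPM, so that these members were measured in a population with markers of other cells, whose part was not tested.

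With 1 wild-type library, which was taken to vary like the libraries of all groups, fitted together, 0 of 46 members were called between the genotypes in DN1, where 0% of all genes were called. Lmo2 itself was at 31.7 CPM in the wild-type and 36.4, 38.7 and 45.1 CPM in the transgenic DN1 libraries. At an unadjusted edgeR p under 0.05 there were 157 genes, of which 1 is a member, Ccr10, the receptor of CCL27 and CCL28, at 1.69 CPM in wild-type and 48.7, 8.70 and 14.04 CPM in transgenic libraries. Among other receptors that reached 10 CPM in DN1, Ccr2 was at 61.98 and 149.7, 86.8 and 90.3 CPM, Ccr6 at 57.999 and 56.9, 42.4 and 45.7 CPM, Ccr8 at 52.9 and 70.5, 57.7 and 60.9 CPM, Ccr4 at 37.8 and 71.97, 57.4 and 44.5 CPM, and Cx3cr1 at 22.5 and 73.4, 24.7 and 32.2 CPM. None of these receptors was called.

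Splenic T cells of the transgenic mice had high Ccr7 and low Ccr9 beside transgenic single-positive thymocytes. Ccr7 was at 398, 337 and 435 CPM in splenic CD4 and 193, 452 and 393 CPM in splenic CD8 cells, and Ccr9 at 26.7, 31.7 and 13.8 CPM and 75.8, 66.96 and 52.3 CPM. All splenic libraries lay above the transgenic single-positive libraries for Ccr7 and under them for Ccr9. Wild-type thymocytes also had high Ccr7, at 429, 443 and 427 CPM in CD4SP and 225, 277 and 143 CPM in CD8SP. They were not tested against the spleen. For Ccr7 the log2 fold change was 2.97 ± 0.81 in CD4 (edgeR adjusted p = 0.041) and 2.999 ± 0.41 in CD8 cells (edgeR adjusted p = 0.00324). For Ccr9 it was -4.50 ± 0.69 in CD4 (edgeR adjusted p = 0.011) and -2.83 ± 0.55 in CD8 cells (edgeR adjusted p = 0.00987). In CD8 cells both calls held in all 6 leave-one-out fits. In CD4 cells the Ccr9 call was lost without TG spleen CD4 replicate 1 (edgeR adjusted p = 0.0525), and the Ccr7 call without TG CD4SP replicate 1 or any splenic CD4 library (edgeR adjusted p between 0.0872 and 0.116).

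Cxcr5, the follicle receptor of B cells and helper T cells, was at 234, 175 and 230.1 CPM in splenic CD4 and 313, 166 and 115 CPM in splenic CD8 cells, higher than in the thymus by 5.88 ± 1.08 (edgeR adjusted p = 0.0151) and 7.88 ± 0.55 (edgeR adjusted p = 0.000537). The B-cell gene Cd79a was at 391, 177 and 868 CPM and 993, 289 and 186 CPM in the same libraries, and at 5.94 CPM or less in TG CD4SP replicates 1 and 2 and all CD8SP libraries, while TG CD4SP replicate 3 had 19.9 CPM. Within the spleen, the libraries with the most Cd79a were not always those with the most Cxcr5 in CD4 cells, and in CD8 cells the order of the 3 libraries was the same for both genes. The part of B cells in the Cxcr5 level was not tested. The call for splenic CD4 cells was lost without TG CD4SP replicate 1 or TG spleen CD4 replicate 1 (edgeR adjusted p = 0.0543 and 0.0561). Ccr6 was at 24.4, 24.5 and 19.5 and 46.02, 8.24 and 5.38 CPM, higher than in the thymus by 3.56 ± 1.02 (edgeR adjusted p = 0.0464) and 6.64 ± 1.06 (edgeR adjusted p = 0.00526). The splenic CD4 call was lost without TG CD4SP replicate 1 or any one splenic CD4 library (edgeR adjusted p between 0.0953 and 0.124), and without TG spleen CD8 replicate 1 the splenic CD8 value was 5.10 ± 0.48 (edgeR adjusted p = 0.00107).

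In splenic CD8 cells Ccl5, Cxcr3 and Cxcr6, genes of effector T cells, rose over CD8SP cells. Ccl5, a chemokine stored by effector CD8 cells, was at 79.99, 1019 and 1760.3 CPM, with replicate 1 far under the other two, and rose over transgenic CD8SP, at 4.11, 38.3 and 3.09 CPM, by 5.91 ± 1.55 (edgeR adjusted p = 0.0268). Cxcr3, the receptor of CXCL9 and CXCL10, was at 32.5, 342 and 336 CPM after 1.21, 10.01 and 0.285 CPM in CD8SP, and Cxcr6 at 20.1, 118 and 91.5 CPM. Without TG spleen CD8 replicate 1 the rises were 6.46 for Ccl5 (edgeR adjusted p = 0.0103) and 6.41 for Cxcr3 (edgeR adjusted p = 0.0105). Both calls were lost without TG CD8SP replicate 1 (edgeR adjusted p = 0.0863 and 0.0862), without TG CD8SP replicate 3 (edgeR adjusted p = 0.0772 and 0.0581) and without either of the other splenic CD8 libraries. All 7 of 7 NK and innate lymphoid markers were called higher as well, with sums of 2.16 to 5.10 CPM in transgenic CD8SP and 63.1, 333 and 354 CPM in the splenic CD8 libraries, and their part in these rises was not tested. Ccr4 went the other way, from 32.2, 22.2 and 37.4 CPM to 0.960, 0.383 and 1.26 CPM, a change of -5.18 ± 0.50 (edgeR adjusted p = 0.00104), and no splenic CD8 library came near the CD8SP range.

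In all, 23 of 30 members differed between splenic CD8 and CD8SP cells, 21 higher and 2 lower, where 37.3% of all genes were called (17.2% higher and 20.1% lower). The count was 22 without TG spleen CD8 replicate 1, where 43.4% of all genes were called, 8 without TG CD8SP replicate 1 and 9 without TG CD8SP replicate 3. Some of the 21 had their highest value in splenic replicate 1. Among these, Cxcr2, a neutrophil receptor, was at 92.8, 1.15 and 0.949 CPM, Ccr3, an eosinophil and basophil receptor, at 86.9, 2.36 and 1.74 CPM, Ccr1 at 41.7, 1.09 and 2.003 CPM, and the myeloid ligands Ccl6 and Ccl9 at 137, 3.64 and 4.06 CPM and 55.1, 1.28 and 1.95 CPM. Without that library the rise of Cxcr2 was 2.65 in place of 7.56 ± 2.17 and that of Ccr3 was 3.79 in place of 7.66 ± 2.04. Both were still called without it (edgeR adjusted p = 0.0124 and 0.0236), as were Ccr1 and Ccl6 (edgeR adjusted p = 0.0133 and 0.025), while Ccl9 was not (edgeR adjusted p = 0.0865). Without any one TG CD8SP library neither Cxcr2 nor Ccr3 was called. The macrophage and granulocyte markers summed to 4765 CPM in replicate 1 and the B-cell markers to 4603 CPM, beside 1717 and 1938 CPM and 1002 and 681 CPM in the other two.

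Splenic CD4 against CD4SP cells gave 12 of 36 members called, 11 higher and 1 lower, where 24.5% of all genes were called (12.5% higher and 12% lower). The count was 1 without TG spleen CD4 replicate 1, 5 without replicate 2, 3 without replicate 3, where 10% of all genes were called, and 4 without TG CD4SP replicate 1. Cxcr2 was called in 6 of 6 of these fits, at 3.65, 3.18 and 8.77 CPM after 0.183, 0.262 and 0.171 CPM. Ccr3 at 17.2, 10.8 and 48.5 CPM, Ccl6 at 13.3, 5.99 and 72.8 CPM and Ackr3, a scavenging receptor of CXCL12, at 1.35, 0.573 and 35.9 CPM had their highest value in replicate 3 and were not called without it. That library also had the most myeloid markers, 3721 CPM beside 848 and 705 CPM. Ackr3 and Ackr2 had at most 3 counts over the 3 thymic CD4SP libraries, so no fold is given. Ackr2, which takes up inflammatory CC chemokines, was at 1.83, 1.35 and 7.71 CPM in splenic CD4 cells and 20.3, 2.68 and 1.95 CPM in splenic CD8 cells. Among interferon-induced ligands of CXCR3, Cxcl9 was at 2.31, 3.70 and 19.4 CPM and Cxcl10 at 11.4, 10.2 and 16.9 CPM in splenic CD4 cells, and at 45.5, 16.5 and 11.8 CPM and 10.1, 1.47 and 2.003 CPM in CD8 cells.

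**Figure D4:**
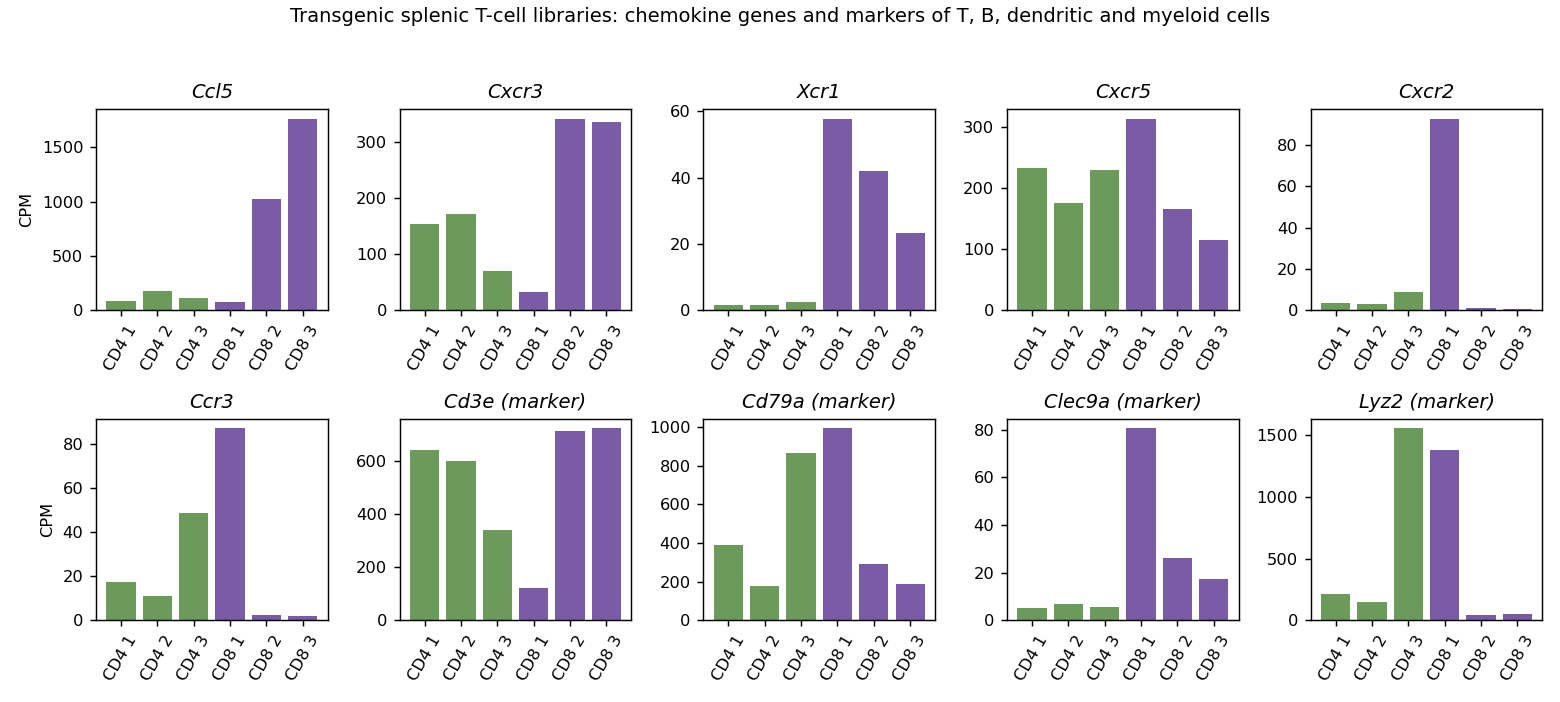
CPM of 6 members and 4 marker genes in the 6 splenic libraries (bars, 1 library each, linear axis from 0; green CD4, purple CD8, numbered by replicate). CD8 replicate 1 has the lowest Cd3e and Ccl5 and the highest Cxcr2, Ccr3 and Cd79a, and Xcr1 and Clec9a are higher in the 3 CD8 libraries than in the 3 CD4 ones.

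Between the 2 splenic populations, Xcr1 was higher in CD8 cells. It was at 57.8, 42.1 and 23.5 CPM in CD8 and 1.68, 1.72 and 2.45 CPM in CD4 libraries, without overlap, a difference of 4.36 ± 0.41 (edgeR adjusted p = 0.0264). It was the only 1 of 37 members called, where 0.491% of all genes were called (0.105% higher and 0.386% lower). Clec9a was at 80.5, 26.1 and 17.3 CPM in the CD8 and 4.90, 6.93 and 5.51 CPM in the CD4 libraries, in the same order as Xcr1 among the CD8 libraries, and a part of dendritic cells was not tested. The Xcr1 call was lost without any one of the 3 CD4 libraries or without CD8 replicate 2 or 3 (edgeR adjusted p between 0.0523 and 0.221), with estimates from 4.26 to 4.64.

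Without TG spleen CD8 replicate 1, 13 of 39 members were called between the splenic populations, 8 higher and 5 lower in CD8 cells, where 10.2% of all genes were called. Xcr1 remained among them at 4.05 ± 0.34 (edgeR adjusted p = 0.00521). Ccl5 was then higher by 3.47 ± 0.39 (edgeR adjusted p = 0.00955), and Xcl1, the ligand of XCR1, by 3.42 ± 0.32 (edgeR adjusted p = 0.00633). Ccr6 was lower, at -1.76 ± 0.25 (edgeR adjusted p = 0.0185), and so was Ccr4, at -5.40 ± 0.99 (edgeR adjusted p = 0.0323). Ccr8 was at 13.8, 14.2 and 5.01 CPM in CD4 and 0.542, 0 and 0 CPM in CD8 libraries. Xcl1 was at 3.71, 20.8 and 21.2 CPM and Cx3cr1 at 71.5, 6.90 and 14.4 CPM in the CD8 libraries, replicate 1 being the lowest for Xcl1 and the highest for Cx3cr1, and NK markers summed to 63.1 CPM there beside 333 and 354 CPM.

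Downstream of the receptors, 45 genes of a chemokine signalling list (G protein subunits, kinases and arrestins that switch receptors off, regulators of G protein signalling and integrins among them) were measured. In DN3, 25 were higher and 8 lower in the transgenic, 33 of 45 or 73.3%, beside 45.7% of all genes tested, and the median log2 fold change was 0.29, beside -0.03 for all genes. Grk3, a kinase that desensitises G-protein-coupled receptors, was at 11.7, 13.7 and 13.9 CPM in wild-type and 0.616, 0.414 and 0.789 CPM in transgenic libraries, a change of -4.43 ± 0.26 (edgeR adjusted p = 9.78e-06). Arrb1, which encodes beta-arrestin 1, went from 17.1, 21.9 and 19.5 CPM to 70.3, 62.4 and 74.97 CPM, a rise of 1.83 ± 0.13 (edgeR adjusted p = 2.32e-05), and Rgs3, which speeds the shut-off of G proteins, from 9.46, 9.60 and 8.48 CPM to 27.7, 42.04 and 39.8 CPM, a rise of 1.99 ± 0.17 (edgeR adjusted p = 6.1e-05). These 3 genes had the smallest adjusted p of the list, so their lack of overlap between the genotypes is no separate result.

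The same list was tested at the other stages. In DN, 6 of 45 were higher and 4 lower (22.2%, beside 12.4% of all genes), led by Rgs2 at -1.13 ± 0.19 (edgeR adjusted p = 0.0131), Rac2 at 1.38 ± 0.25 (edgeR adjusted p = 0.0155) and Gng2 at -0.76 ± 0.16 (edgeR adjusted p = 0.0241). In DP 0 of 43 were called, where 0% of all genes were, and the smallest adjusted p in edgeR was 0.213, shared by Itgb7, Rgs3 and Tiam1. In CD4SP 4 of 44 were higher and 6 lower (22.7%, beside 25.9% of all genes), led by Plcb3, a phospholipase, at 1.91 ± 0.19 (edgeR adjusted p = 0.00543), Rap1b at -0.97 ± 0.16 (edgeR adjusted p = 0.0108) and Rgs10 at -1.10 ± 0.20 (edgeR adjusted p = 0.0142). In CD8SP 1 of 44 was higher and 1 lower (4.55%, beside 4.45% of all genes), Plcb3 at 1.11 ± 0.17 (edgeR adjusted p = 0.0218) and Rgs19 at -0.65 ± 0.13 (edgeR adjusted p = 0.0417), and Rgs3 missed the threshold (edgeR adjusted p = 0.0538).

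Some members overlap other genes by annotated start and end, or have close copies. In the RefSeq table Cxcr6 overlaps Fyco1, and Cxcr5, Cxcl16, Ccr10, Cxcl10, Ackr1 and Ackr4 overlap Bcl9l, Zmynd15, Cntnap1, Art3, Cadm3 and Acad11, while Ccl3 overlaps Ccl4. Whether the exons of such a pair overlap was not checked. No source used here states the strandedness of the counting, so where exons overlap, reads could not be told apart. Ccl21a, Ccl21b and Ccl21c, and Ccl27a and Ccl27b, are near-identical copies, and their split between the rows is uncertain.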

How the data were processed

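RNA was measured in 40 libraries of 14 groups, assigned from the sample titles. The authors deposited a table of read counts and FPKM values per gene (per the file headers), and HISAT, DESeq2 and the mm10 build are named in the submitters' processing notes without versions or roles. The tests used the read counts, in edgeR 4.0.16 under R 4.3.3 (TMM, filterByExpr with a minimum count of 10 and minimum total of 15, robust quasi-likelihood fit, Benjamini-Hochberg adjustment over all genes tested, threshold 0.05), with only the groups compared in each fit, except that DN1 was fitted with all groups. Standard errors are the log2 fold change divided by the square root of F. CPM are counts over the effective library size of all 40 libraries, and the deposited FPKM values were used only to order genes within a group. The procedure was tested on simulated counts with the same spread for all genes and no library that stood apart from its group. That test therefore does not cover the libraries here that did. DESeq2 1.42.0, RLE size factors, no filter, a replicate term and leaving out 1 library were the alternatives. Members with a group mean of at least 10 CPM are described by library and others of at least 1 CPM by means. Fold changes are given for called members that reach 1 CPM in the comparison, for a few others as values, and for the 3 signalling genes per genotype comparison with the smallest adjusted p. The members and lists were chosen with earlier results of these data known. The anti-LMO2 peak lists and 4 columns of samples outside the labels were not used here. Replicate numbers pair no samples by the labels, and in no comparison did all 3 same-numbered pairs correlate above 0.1. Values of 1 member are not reported here, though the counts of members include it.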

Additional observations from a re-analysis of the deposited data

Results flagged for a closer look

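1 result met the criteria for a closer look, because the effect of the transgene on Ccr9 differed between DP and DN3 cells by a test of the difference itself. The difference was 2.48 ± 0.33 on the log2 scale (edgeR adjusted p = 0.00137). The cause was not tested.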

How the results depend on the processing

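Among the counts and the members called, with Ccr9 in the genotype comparisons, no result changed direction under the alternatives run. For these members 794 values kept their side of the threshold, 198 lost the call and 2 gained it, and other members are outside this tally. The number of members called moved by more than 1.5 times in these cases. Without the filter on low counts it was 8 in DN3 and 2 in DN, and 2 for the DP minus DN3 difference. With 1 fit of all libraries it was 2 for DN, 9 for CD4SP and 1 for CD8SP cells. With DESeq2 it was 2 in DN, 10 in CD4SP, 22 for splenic CD4 against CD4SP, 10 between the splenic populations, 3 for DP minus DN3 and 1 for CD8SP minus CD4SP. With a term for the letter N in column names it was 1 in CD8SP. With the replicate block it was 0 in DN, 2 in CD4SP and 0 between the splenic populations. The labels do not say whether a shared replicate number marks a shared animal or day. Same-numbered libraries correlated between -0.53 and 0.62, which with 3 libraries per group cannot settle this. In TG vs WT DN and WT CD8SP vs WT DP each of the 3 correlated best with its own number. No paired analysis was possible for DN1 because it has 1 wild-type library. Leaving out 1 library gave 3 to 6 members called in DN3, 0 to 2 in DN, 0 to 1 in DP, 0 to 13 in CD4SP and 0 to 2 in CD8SP. For the wild-type stages it gave 7 to 12 from DN3 to DP, 14 to 18 and 10 to 15 from DP to CD4SP and CD8SP, and 6 to 11 between CD8SP and CD4SP. For the spleen it gave 1 to 14 against CD4SP, 8 to 22 against CD8SP and 0 to 13 between the populations, and for the 2 differences 1 to 4 and 0 to 0. It gave 0 in DN1. The causes were not tested. The term for the letter N could not be fitted in DN and CD4SP, and the alternatives on anti-LMO2 peaks were not run. Members under 1 CPM rest on few reads, so that differences there were often not detectable at this depth.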

Other observations

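Members of low abundance had their highest means in a few populations. Cxcl12, the stromal ligand of CXCR4, had a mean of 6.41 ± 9.42 CPM (SD, n = 3) in splenic CD4 libraries, of which replicate 3 alone had 17.3 CPM. Ccl24, an eosinophil attractant, was also highest in that library, at 4.56 CPM, and the same library had the most erythroid and myeloid markers of the splenic CD4 group. Ackr1, a scavenging receptor of red cells and vessels, was at 2.11 ± 1.34 CPM in splenic CD4 libraries. Ccl25 lay between 2.37 and 5.47 CPM in transgenic DN libraries and had a mean of 3.39 ± 0.72 CPM in wild-type CD4SP. Cx3cl1, the ligand of CX3CR1, was at 2.38 ± 0.41 CPM in transgenic DN1 and 2.17 CPM in the wild-type DN1 library, and 0.65 ± 0.19 CPM in splenic CD4. The inflammatory ligands Ccl3 and Ccl4 were highest in splenic CD8 libraries, at 5.10 ± 2.54 and 7.96 ± 5.20 CPM.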
